A study of Mus musculus with 20 samples.

Results

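The respiratory chain genes described here were 98 of the 46078 genes in a table of liver read counts. They were chosen by symbol: the subunits of NADH dehydrogenase (complex I), succinate dehydrogenase (complex II), the cytochrome bc1 complex (complex III), cytochrome c oxidase (complex IV) and ATP synthase (complex V), with pseudogenes and Ndufaf assembly factors left out. Of the 118 genes whose symbols matched, 8 were assembly factors, 11 were pseudogenes or non-coding, and 1 was a second Uqcrc1 identifier without reads. The nucleus encodes 85 of the members (36 of complex I, 4 of complex II, 8 of complex III, 20 of complex IV and 17 of complex V). The mitochondrial genome encodes the other 13 (7 of complex I, 1 of complex III, 3 of complex IV and 2 of complex V).

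The respiratory chain passes electrons from NADH and succinate to oxygen, and complexes I, III and IV pump protons across the inner mitochondrial membrane, which ATP synthase uses to make ATP. Every complex except succinate dehydrogenase is built from subunits of both genomes, so the cytosolic and the mitochondrial ribosomes must each supply a part. The mitochondrial genes are transcribed from both strands of a circular genome as long precursors that are cut at the tRNAs, whereas each nuclear gene has its own promoter. Hepatocytes depend on this chain for fatty acid oxidation, gluconeogenesis and the urea cycle.

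The study set out to compare liver RNA of diabetic mice given a bamboo leaf extract or an insulin-sensitising drug. The normal group held C57BL/6J wild-type mice given saline. The other groups were db/db mice, which lack a working leptin receptor: the model group received saline, the PGZ group pioglitazone, a PPAR gamma agonist, at 20 mg/kg, and the DLE group a leaf extract of Dendrocalamus latiflorus at 200 mg/kg, all for 12 weeks. The strain background of the db/db mice was not given in the sources used here, so genotype and background cannot be told apart, and neither age nor sex was given. Each group had 4 libraries, with 16922833 to 25119799 reads per library. The white tea extract group had empty columns and was not analysed here. Libraries are named as in the labels, and the labels do not say whether they came from separate mice, so p-values measure only the spread between these libraries, which may be technical.

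Levels are given as CPM, counts scaled to a fixed library total by TMM, and calling required a Benjamini-Hochberg adjusted p under 0.05 across the 15744 genes that edgeR tested (quasi-likelihood). Log2 fold changes are given ± their standard error, and a difference without overlap means that every library of a group lay on the same side of every library of the other. Of the members, 94 were tested (81 nuclear and all 13 mitochondrial). The nuclear genes Cox6a2 and Cox8b had too few reads, and Cox7b2 and Cox8c had 0 reads in every library. In a liver made of several cell types, fewer cells of a type and less RNA per cell cannot be told apart. The 6 hepatocyte markers summed to 30793 to 104608 CPM across the libraries, and the 6 skeletal muscle markers to no more than 1.81 CPM.

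Several libraries lay apart from the rest of their group, normal_376 the furthest. In normal_376, 77 of the 81 nuclear members tested lay below the mean of the other normal libraries, by a median of 1.08 on the log2 scale (−1.08). It was the lowest normal library for 75 of them, or 92.6%, against 33.7% of all genes tested. Its 13 mitochondrial members lay above the mean of the other normal libraries by a median of 0.32. Other gene sets were low there too: cytosolic ribosomal protein genes had a median of −0.74 and proteasome subunits of −0.65. Protein-coding genes with a mean above 20 CPM were also ranked by exon length. The shortest 20% of them, with members left out, had a median of −0.46 and the longest 20% of 0.26. The median of all genes was 0.05. Their part in the results was not tested. The hepatocyte marker sum of normal_376, 30793 CPM, was the lowest of the 16 libraries. In model_387, 76 of the 81 nuclear members were below the mean of the other model libraries (median −0.41), while in model_327 the mitochondrial members were low (median −0.52, 12 of 13 below). The acute-phase markers summed to 84372 CPM in model_327 and 30759 CPM in model_387, against 527 and 3697 CPM in the other model libraries. The neutrophil markers summed to 2117 CPM in model_387 against 1.77 to 18.9 CPM in the other model libraries, and the Kupffer cell markers to 591 CPM against 85.7 to 403 CPM. Their part in the results was not tested. In the DLE group nuclear members were low in model_DLE_378 (median −0.46, 76 of 81 below) and high in model_DLE_361 (0.40, 73 of 81 above), and mitochondrial members were low in model_DLE_401 (−0.71, 12 of 13 below). In model_PGZ_328 all 13 mitochondrial members were above the rest of the PGZ group (median 0.59).

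**Figure D1:**
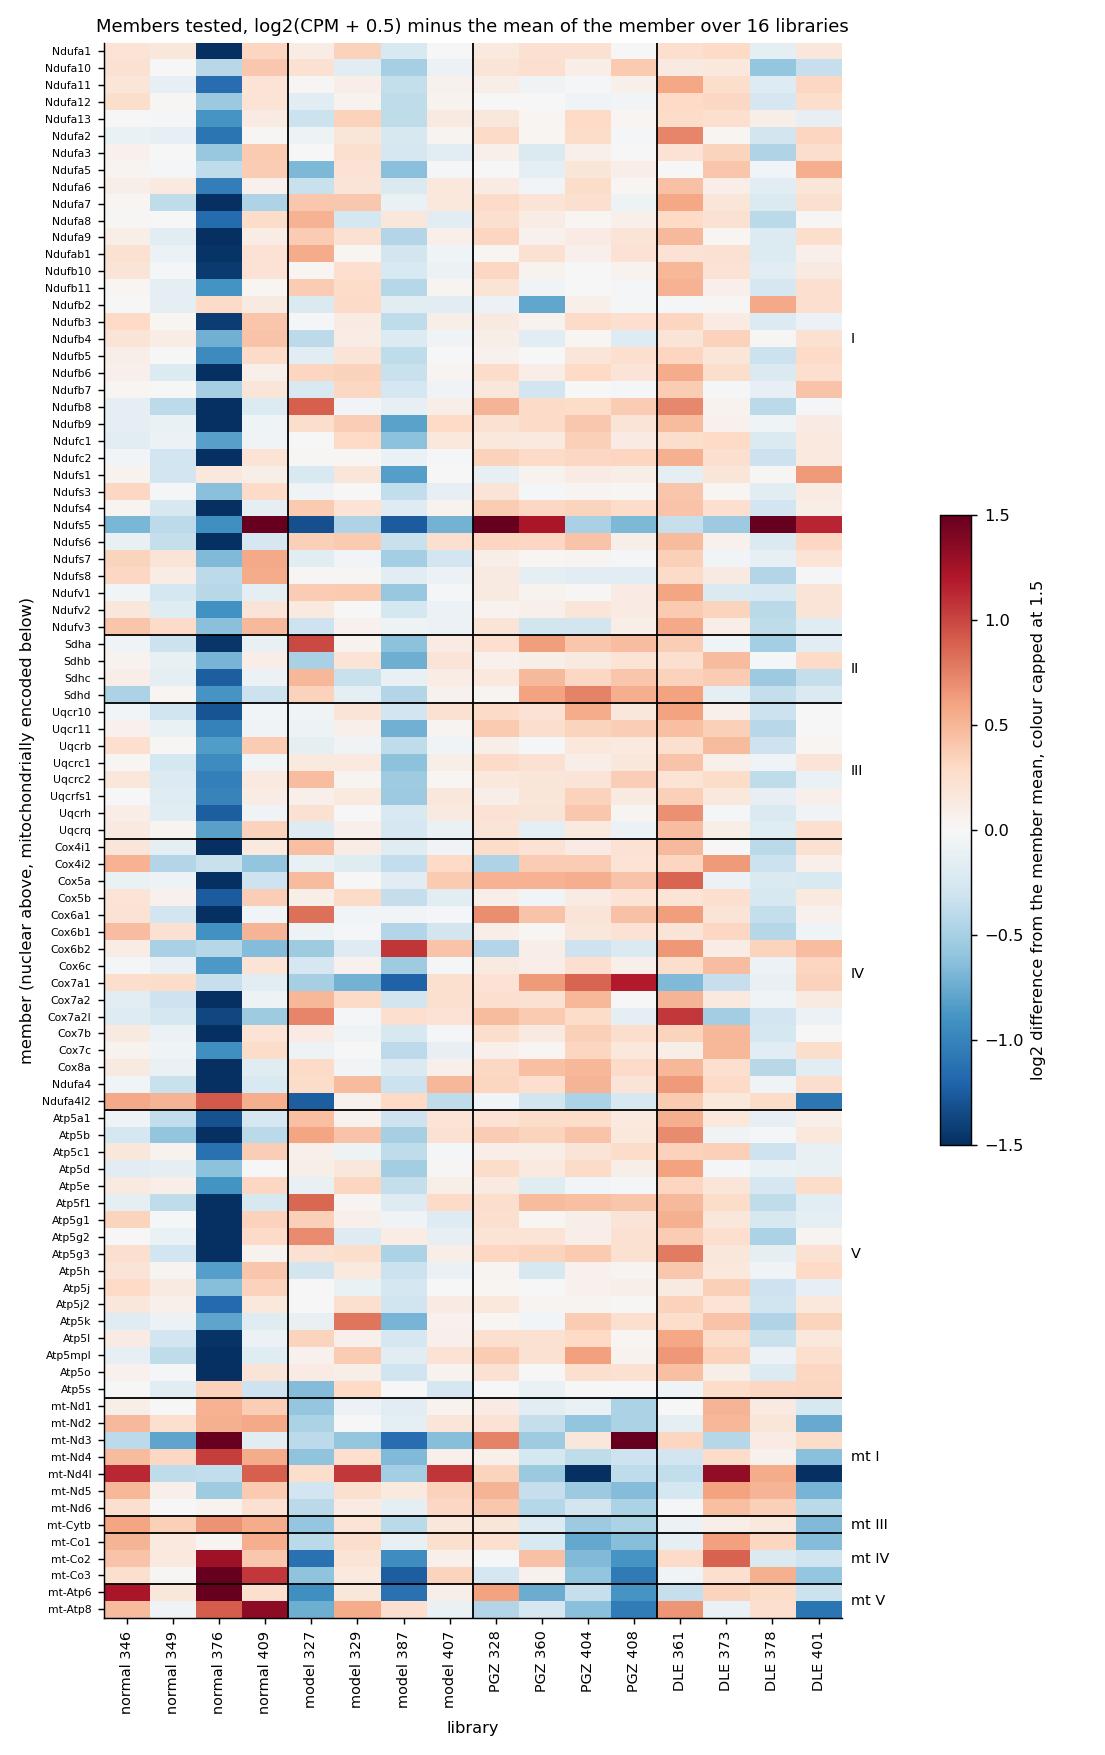
Each row is 1 of the members tested, ordered by genome and complex (1 member is not shown), and each column is 1 of the 16 libraries. Colour is log2(CPM + 0.5) minus the mean of that member over the 16 libraries: normal_376 is blue over nearly all nuclear rows, with 75 of 81 at their lowest normal value, and the rows of the mitochondrial genes are mostly red in the normal libraries.

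The mitochondrially encoded genes made up most of the respiratory chain RNA. Per kilobase of exon, mt-Co1, the catalytic subunit of cytochrome c oxidase, was the highest, with a mean of 40751 CPM per kb over the 16 libraries. It was followed by mt-Cytb of the bc1 complex at 24169, then by the complex I subunits mt-Nd1 at 17948, mt-Nd2 at 17322, mt-Nd4 at 10710, mt-Nd6 at 10264 and mt-Nd5 at 6839 CPM per kb. The nuclear members tested had a median of 72.0 CPM per kb, and the highest of them, Cox6a1, had 443 CPM per kb.

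A second set of mitochondrial genes was counted at much lower levels: mt-Co2 at 1491, mt-Atp6 at 1468, mt-Co3 at 1163, mt-Nd4l at 317 and mt-Nd3 at 185 CPM per kb. Over the libraries the ranges of neighbours in the order of levels overlapped, except between mt-Nd5 and mt-Co2. These 5 genes were those with a near-identical annotated nuclear copy. Between 97.8% and 99.9% of their 75-base windows also occurred in pseudogenes that lie side by side on chromosome 1 (GRCm38, positions 24611535 to 24616197). The share was 61.5% for mt-Nd4, 39.8% for mt-Co1 and at most 5.71% for mt-Cytb, mt-Nd1, mt-Nd2, mt-Nd5, mt-Nd6 and mt-Atp8. The pseudogenes held reads in every library: over the 16 libraries Gm28661 had 126615 reads against 338496 of mt-Co2, Gm10925 had 163676 against 327357 of mt-Atp6, and Gm28437 had 110874 against 296731 of mt-Co3. In single libraries the copy held between 21.7% and 127% of the reads of mt-Co3. How reads that match several places were counted was not given in the sources used here, so the counts of these 5 genes are uncertain. mt-Atp8, at 127 CPM per kb and with 8345 reads in all, was also low without such an annotated copy. Only annotated transcripts were searched, and mt-Atp8 starts between mt-Co2 and mt-Atp6. On chromosome 1 the copy of mt-Atp6 ends at 24614651 and that of mt-Co2 starts at 24614885. Whether an unannotated copy of mt-Atp8 lies between them was not tested, so its count is uncertain too. Its 3' end overlaps the start of mt-Atp6, and how reads in an overlap were counted was not given. mt-Nd6 lies on the opposite strand to its neighbours, and without a stated strand setting its reads cannot be told from antisense RNA.

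**Figure D2:**
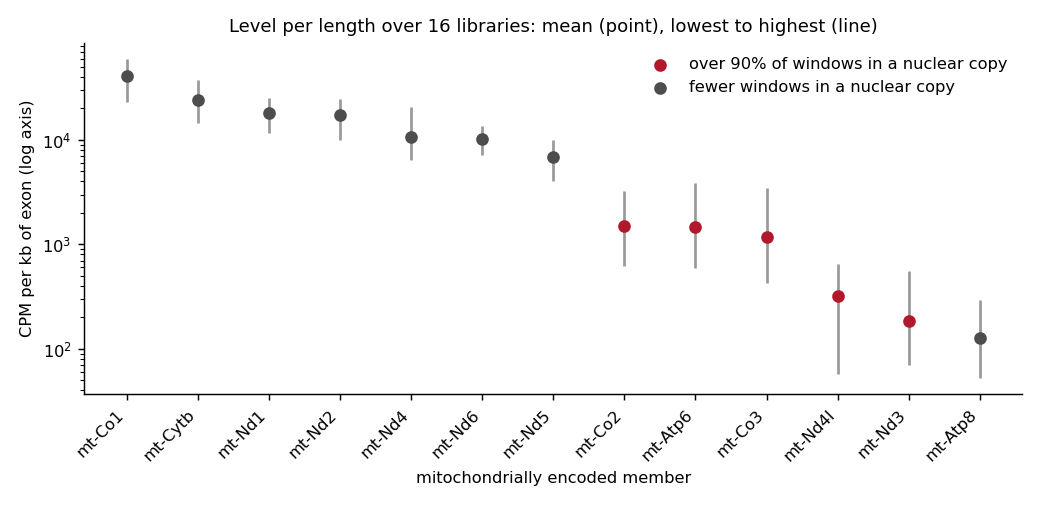
The 13 mitochondrially encoded members are ordered by mean CPM per kb over 16 libraries (point, log axis), with the lowest and highest library as a line. The 5 members with over 90% of their windows in a nuclear copy (red) lie between 185 and 1491 CPM per kb, below the 7 members from mt-Nd5 (6839) to mt-Co1 (40751), and mt-Atp8 lies lowest at 127.

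As a share of all reads, the group means of the 2 sets lay on opposite sides of the normal group in each db/db group. Both shares have the same total, so a lower mitochondrial share by itself raises the nuclear share. The 13 mitochondrial members held 18.9 ± 1.81% of reads in the normal group (mean ± SD, n = 4 in each group), whereas model had 14.8 ± 4.34%, PGZ 14 ± 2.46% and DLE 16.4 ± 4.93%. Single libraries ranged from 16.6% to 21.1% (normal), 9.11% to 18.3% (model), 11.9% to 17.3% (PGZ) and 12.0% to 21.4% (DLE). The PGZ libraries overlapped the normal ones only through model_PGZ_328, at 17.3%. The DLE libraries spread most, with model_DLE_373 and model_DLE_378 at 21.4% and 19.8% and model_DLE_361 and model_DLE_401 at 12.0% and 12.3%.

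The 85 nuclear members held 0.900 ± 0.249% of reads in the normal group, against 1.09 ± 0.160% for model, 1.38 ± 0.121% for PGZ and 1.26 ± 0.176% for DLE. The normal libraries had 1.04%, 0.981%, 0.529% (normal_376) and 1.05%, and without normal_376 they averaged 1.02 ± 0.0373% (n = 3). PGZ libraries, from 1.24% to 1.53%, lay above every normal library with or without it. Model libraries, from 0.902% to 1.26%, did not. Of the DLE libraries, model_DLE_378 at 1.03% lay within the normal range and the others, from 1.26% to 1.46%, lay above it. Of the reads outside the mitochondrial genome, nuclear members held 1.115 ± 0.295% in the normal group and 1.296 ± 0.240% in model. By that measure PGZ had 1.607 ± 0.105% and DLE 1.509 ± 0.170%. Without normal_376 the normal group had 1.260 ± 0.0659% (n = 3), so the model mean then hardly differed from it.

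The ratio of the sets followed from both. Mitochondrial reads per nuclear read averaged 23.3 ± 11.1 in the normal group, 10.4 ± 2.67 with PGZ, 13.5 ± 3.12 in the model group and 13.5 ± 5.40 with DLE. The normal_376 library had 39.8, and the other normal libraries 17.7 ± 0.682. Against these 3, all 4 PGZ libraries (8.11 to 14) and all 4 model libraries (8.91 to 15.5) were lower, while model_DLE_378 at 19.2 was above them. The share and the ratio are descriptions over chosen genes and carry no test.

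**Figure D3:**
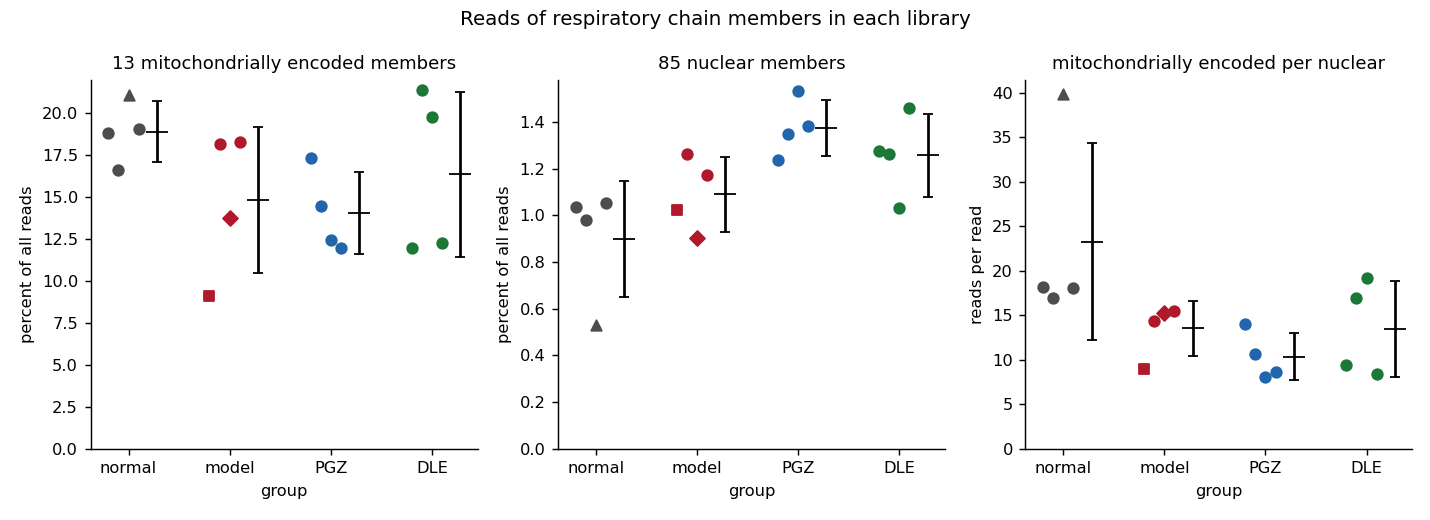
Percent of all reads held by the 13 mitochondrially encoded members (left) and the 85 nuclear members (middle), and mitochondrially encoded reads per nuclear read (right), 1 point per library, with the group mean and SD (n = 4). The triangle is normal_376, the square model_327 and the diamond model_387: the triangle lies lowest for nuclear members (0.529%) and highest for the ratio (39.8).

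Untreated db/db liver was compared with wild-type liver first. The mitochondrially encoded members had a median log2 fold change of −0.66, with 12 of 13 negative. Nuclear members had a median of 0.19 with 56 of 81 positive, and the median of all genes tested was 0.07. edgeR called 0 members, in a comparison that called 9.08% of all genes (6.18% higher and 2.9% lower). At an unadjusted p under 0.05 stood 6 mitochondrial and 9 nuclear members, together 16% of those tested, against 27.97% of all genes. DESeq2 called 4 members (4.26%, against 9.17% of the 25770 genes with any read) and limma voom 13 (13.8%, against 27.5%). Here and below, DESeq2 shares of all genes include low-count genes that the edgeR filter left out, whereas the members had passed it. The 2 DESeq2 shares are therefore not alike.

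Among the mitochondrial genes in that comparison, mt-Nd2 had 24230, 20312, 25018 and 25688 CPM in normal and 12371, 17354, 15688 and 19594 CPM in model libraries. mt-Cytb had 40007, 33844, 42425 and 38811 CPM in normal and 17661, 30430, 19982 and 29848 CPM in model libraries. Every model library lay below every normal one for both genes, yet neither change was called (log2 change −0.55 ± 0.31, adjusted p = 0.26, and −0.66 ± 0.30, adjusted p = 0.17). mt-Nd4 and mt-Atp6 also did not overlap, so that 4 of 13 were lower without overlap, against 7.13% of all genes. The median of the mitochondrial members was −0.53 without normal_376, −0.37 without model_327 and model_387, and −0.19 without all 3.

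Among the nuclear genes, Atp5b, the catalytic beta subunit of ATP synthase, had the smallest p. It had 325.2, 259, 131 and 295 CPM in the normal group and 588, 526, 276 and 457 CPM in the model group. Only model_387 fell within the normal range (log2 change 0.87 ± 0.29, adjusted p = 0.073). Ndufa7, an accessory subunit of complex I, came next at 0.71 ± 0.26 (adjusted p = 0.091). Cox7a2l, a relative of Cox7a2, followed at 0.86 ± 0.32 (adjusted p = 0.10). Nuclear members without overlap numbered 2 higher and 1 lower of 81, against 6.57% and 7.13% of all genes. Without normal_376, 2 were higher and 8 lower (9.88%, against 9.45% of all genes). The nuclear median was then −0.01, with 38 positive and 43 negative, so the direction of the nuclear median in untreated db/db liver depended on that library. Without model_327 and model_387, but with normal_376, it was 0.27, and 27 nuclear members were higher without overlap, against 15.3% of all genes.

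Pioglitazone-treated db/db liver was compared with wild-type liver next, and of the 6 comparisons this was the only one in which edgeR called members. Sdhd and Atp5b rose and the mitochondrial genes mt-Atp8 and mt-Co3 fell. These are 4 of 94 members tested, below the 12.2% of all genes called in this comparison (6.15% higher and 6.08% lower). The median of the nuclear members was 0.37, with 68 of 81 positive, and the median of the mitochondrial members was −0.78, with 12 of 13 negative, beside 0.03 for all genes tested. Unadjusted p under 0.05 was reached by 22 nuclear and 6 mitochondrial members, together 29.8%, which is close to the 30.2% of all genes. The mitochondrial median was −0.94 and the nuclear 0.35 without model_PGZ_328.

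mt-Atp8, a small membrane subunit of ATP synthase, had 32.3, 22.3, 43.8 and 59.6 CPM in normal libraries and 17, 19.5, 14.9 and 10.9 CPM in PGZ libraries. Every PGZ library lay below every normal one (log2 change −1.34 ± 0.37, adjusted p = 0.028). mt-Co3, a core subunit of cytochrome c oxidase and 1 of the genes with a near-identical nuclear copy, had 936, 800, 2692 and 1650 CPM in normal and 668, 829, 525 and 380.6 CPM in PGZ libraries. model_PGZ_360 lay within the normal range (log2 change −1.34 ± 0.43, adjusted p = 0.0497). Without normal_376, adjusted p was 0.070 for mt-Atp8 and 0.18 for mt-Co3, and the mt-Co3 log2 fold change shrank to −0.91. mt-Co3 was also not called with RLE scaling (adjusted p = 0.0501), with scaling on genes outside the mitochondrial genome (0.058), with no filter (0.054) or with the reads of its nuclear copy added (−1.27, adjusted p = 0.072).

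The remaining mitochondrial members were not called. mt-Nd2, mt-Nd4 and mt-Cytb were lower in all PGZ than in all normal libraries, with log2 fold changes of −0.73 ± 0.31, −0.83 ± 0.31 and −0.78 ± 0.30 and adjusted p of 0.13, 0.090 and 0.099. With mt-Atp8 they made 4 of 13 lower without overlap, against 15.7% of all genes. As log2 changes, mt-Atp6 had −1.15, mt-Nd4l −0.91, mt-Co2 −0.82, mt-Co1 −0.62, mt-Nd1 −0.40, mt-Nd5 −0.34 and mt-Nd6 −0.28. mt-Nd3 alone was positive, at 0.16, and normal_376 had 193 CPM against 31.0 to 47.9 CPM in the other normal libraries.

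Complex II, which is wholly nuclear and also works in the citric acid cycle, had the largest median of the 5 complexes in this comparison, 0.72, and 3 of its 4 subunits, Sdha, Sdhc and Sdhd, were higher in every PGZ than in every normal library, as were 16.5% of all genes. Sdhd, the small membrane anchor, had 50.3, 71.5, 37.6 and 55.9 CPM in normal libraries and 71.6, 107, 117 and 102 CPM in PGZ libraries. The lowest PGZ value, in model_PGZ_328, lay just above the highest normal one, and the rest lay well above it (log2 change 0.89 ± 0.26, adjusted p = 0.035). Sdha, the flavoprotein that binds succinate, had 121, 101, 45.6 and 116 CPM in normal and 151, 195, 169 and 174 CPM in PGZ libraries (log2 change 0.84 ± 0.33, adjusted p = 0.099). Sdhc, the other anchor, had a log2 fold change of 0.60 ± 0.28 (adjusted p = 0.16). Sdhb, the iron-sulfur subunit, overlapped between groups, with 0.26 ± 0.24 (adjusted p = 0.49).

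In ATP synthase the median was 0.39. Atp5b had 508, 493, 526 and 436 CPM in PGZ libraries, all above the 131 to 325.2 CPM of the normal libraries (log2 change 0.96 ± 0.30, adjusted p = 0.044). Its partner in the catalytic head, Atp5a1, had 419, 437, 436 and 398 CPM against 347, 279, 145 and 302 CPM and was not called (log2 change 0.66 ± 0.26, adjusted p = 0.10). Atp5c1, the central shaft, overlapped, with 0.20 ± 0.26 (adjusted p = 0.63). Atp5d, Atp5f1, Atp5k and Atp5mpl were also higher without overlap, so that 6 of the 17 nuclear subunits were, beside 16.5% of all genes.

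In complex IV the median was 0.57. Cox5a, a structural subunit, had 77.0, 78.4, 13.6 and 66.6 CPM in normal and 119, 119, 121 and 112 CPM in PGZ libraries. All PGZ libraries lay above all normal ones (log2 change 1.0 ± 0.39, adjusted p = 0.10), and the 13.6 CPM of normal_376 was far below the rest of its group. Without that library the log2 fold change was 0.67 ± 0.26 (adjusted p = 0.14). Cox4i1 and Cox5b, which are other nuclear subunits of complex IV, overlapped, at 0.42 ± 0.32 and 0.13 ± 0.28. Ndufa4l2, a Ndufa4 paralog, had the opposite sign, with 5.17, 4.95, 6.70 and 5.07 CPM in normal and 3.22, 2.66, 2.24 and 2.74 CPM in PGZ libraries (log2 change −1.01 ± 0.40, adjusted p = 0.10). It was the only nuclear member lower without overlap, against 15.7% of all genes. Besides Cox5a, the genes Cox7a2, Cox7a2l, Cox8a and Ndufa4 were higher without overlap. These made 5 of the 16 nuclear members tested in complex IV, beside 16.5% of all genes.

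In complex III all 8 nuclear fold changes were positive, with a median of 0.43. Uqcr10, Uqcr11 and the core protein Uqcrc1, 3 of the 8, were higher without overlap, beside 16.5% of all genes. In complex I the median was 0.23 over 36 subunits, and 9 of these, Ndufv1 among them, were higher without overlap. Core subunits lay on both sides of 0 as log2 changes: Ndufv1 had 0.29 ± 0.22, Ndufv2 0.23 ± 0.23, Ndufs3 0.03 ± 0.20, Ndufs1 0.03 ± 0.21, Ndufs7 −0.14 ± 0.22 and Ndufs8 −0.26 ± 0.20, and none of these was called. Accessory subunits Ndufs6 (0.79 ± 0.28, adjusted p = 0.072) and Ndufb8 (0.89 ± 0.34, adjusted p = 0.091) had larger values.

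In all, 26 of 81 nuclear members were higher in every PGZ than in every normal library, or 32.1%, against 16.5% of all genes. The count was 26 without normal_376 as well, when 20% of all genes did so. The nuclear members lower in every PGZ library went from 1 (1.23%, against 15.7% of all genes) to 7 (8.64%, against 19%). The nuclear median without normal_376 was 0.14, and by complex it was 0.01 for I, 0.50 for II, 0.23 for III, 0.33 for IV and 0.13 for V. All 4 calls were lost without normal_376. They were also all lost without normal_409, model_PGZ_360, model_PGZ_404 or model_PGZ_408, each left out alone. In these fits 5.33% to 7.04% of all genes were called. Without normal_376, model_327 and model_387 together, a choice made after seeing the data, 6 members were called (6.38%, against 17.4% of all genes). Sdhd, Atp5b and mt-Atp8 were among them in this edgeR fit (adjusted p = 0.043, 0.027 and 0.045), and mt-Co3 was not (0.062). With no filter on low counts, adjusted p was 0.052 for Sdhd and 0.073 for Atp5b.

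**Figure D4:**
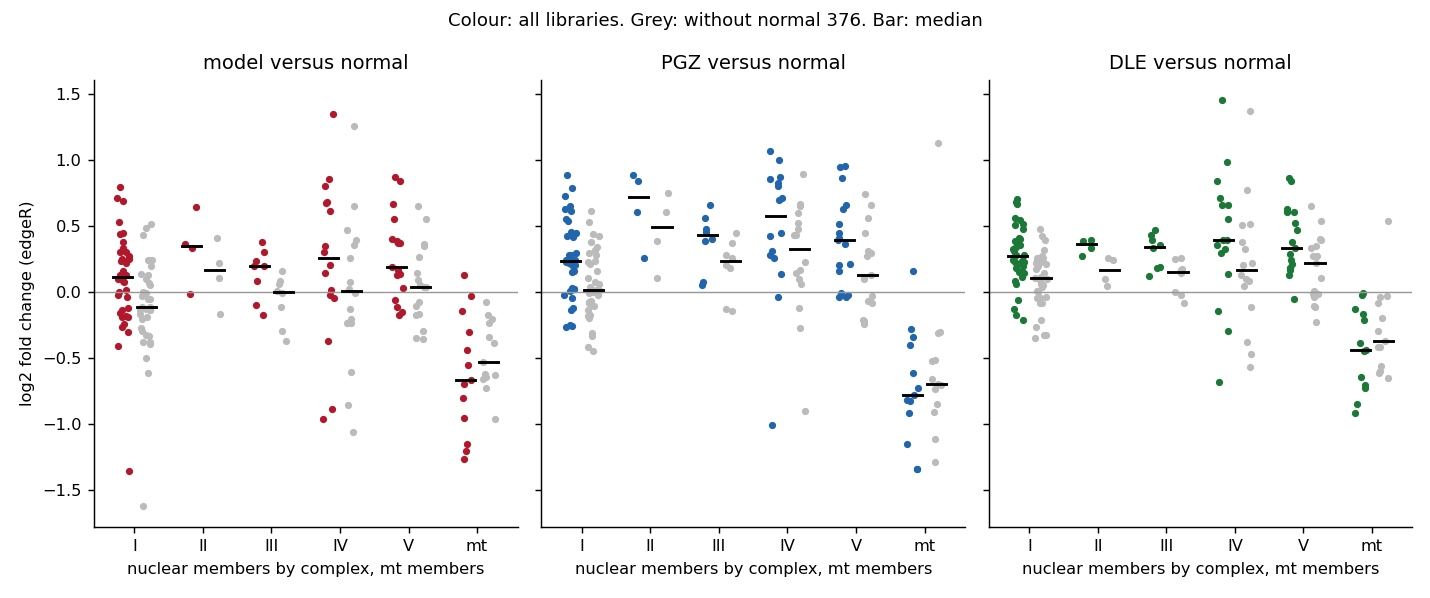
Log2 fold changes of the nuclear members by complex (I to V) and of the mitochondrially encoded members (mt) against normal libraries, 1 point per member, with all 16 libraries (colour) and without normal_376 (grey), and the median as a bar. The mt medians stay below 0 in all 3 comparisons (−0.66, −0.78 and −0.44 with all libraries), while the nuclear medians move towards 0 without normal_376.

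The 2 called nuclear genes are shown with the sequence before their start sites, from RefSeq on GRCm38.p6, since both rose and their promoters hold different motifs. Capitals mark matches on either strand to the motif of nuclear respiratory factor 1 (NRF1: GCGC, any base, TGCGC), the ETS motif bound by GABP (CCGGAAG), the estrogen-related receptor motif (AAGGTCA) or CCAAT. The Atp5b window is chr10:128083057-128083272 on the plus strand (216 bases, ending where the annotated gene begins), and the Sdhd window is chr9:50603850-50604099 on the minus strand (250 bases).
Atp5b: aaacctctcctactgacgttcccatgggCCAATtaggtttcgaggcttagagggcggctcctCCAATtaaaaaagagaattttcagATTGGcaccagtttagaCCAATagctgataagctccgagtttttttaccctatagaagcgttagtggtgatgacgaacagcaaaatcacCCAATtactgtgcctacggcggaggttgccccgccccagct
Sdhd: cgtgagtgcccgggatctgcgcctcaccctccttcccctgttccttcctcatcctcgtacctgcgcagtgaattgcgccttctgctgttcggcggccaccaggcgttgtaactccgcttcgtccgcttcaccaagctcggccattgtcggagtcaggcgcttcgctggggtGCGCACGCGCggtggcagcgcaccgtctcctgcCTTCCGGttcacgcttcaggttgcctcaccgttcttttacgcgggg
Atp5b held CCAAT 5 times and no match to the other motifs, and Sdhd held 1 NRF1 and 1 ETS match and no CCAAT. Of the 85 nuclear members, 69 were matched to a RefSeq promoter of 250 upstream bases. The NRF1 motif was found in 11 of them (15.9%), against 3.86% of 27025 promoters, and the ETS motif also in 11 (15.9%), against 7.05%. CCAAT was found in 29 (42.0%, against 34.5%) and the estrogen-related receptor motif in 4 (5.80%, against 4.05%). These shares describe letters in a window and say nothing of binding.

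DLE-treated db/db liver was also compared with wild-type liver. edgeR called 0 members, with 3.54% of all genes called (1.84% higher and 1.7% lower). DESeq2 and limma voom called 0 members as well. DESeq2 called 4.02% of the genes with any read, and limma voom 9.6% of the genes it tested. At an unadjusted p under 0.05 stood 3 mitochondrial and 9 nuclear members, together 12.8%, against 15.8% of all genes. The mitochondrial median was −0.44 with 13 of 13 negative, the nuclear median 0.33 with 73 of 81 positive, and the median of all genes 0.04. Without normal_376 these were −0.37, 0.13 and 0.06. The nuclear median was 0.43 without model_DLE_378 and 0.23 without model_DLE_361, and the mitochondrial median −0.27 without model_DLE_401.

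The normal libraries are shared with the comparisons before. Atp5b had 640, 377, 385 and 438 CPM in DLE libraries, all above the normal libraries (log2 change 0.86 ± 0.29, adjusted p = 0.13). Ndufa7 had 0.70 ± 0.26 (adjusted p = 0.18) and Atp5mpl, a small ATP synthase subunit, 0.84 ± 0.33 (adjusted p = 0.21). mt-Nd4 and mt-Cytb were the 2 mitochondrial genes lower without overlap, at −0.73 ± 0.31 and −0.64 ± 0.30, against 6.22% of all genes. The 3 nuclear members higher without overlap, of 81, stood against 6.03% of all genes. model_DLE_361 was the highest DLE library for 54 of 81 nuclear members and model_DLE_378 the lowest for 68.

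Treated and untreated db/db livers were then compared, with the model libraries as the shared reference. For PGZ against model edgeR called 0 members, with 0.0127% of all genes called. DESeq2 called 0 members, against 0.497% of the genes with any read, and limma voom 3 (3.19%, against 10.4% of all genes). Unadjusted p under 0.05 was reached by 2 nuclear members, Cox7a1 and Ndufs5, and 1 mitochondrial member, mt-Nd3, together 3.19%, against 9.78% of all genes. The nuclear median was 0.15 with 72 of 81 positive, the mitochondrial −0.14 with 4 of 13 positive, and that of all genes −0.09.

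Nuclear members higher in every PGZ than in every model library numbered 9 of 81, against 2.87% of all genes (2.01% were lower, and 0 nuclear members): Ndufc2, Ndufs7, Uqcr11, Uqcrb, Cox6b1, Cox6c, Cox7b, Cox7c and Atp5c1. Uqcr11, a small complex III subunit, had the smallest p of them (log2 change 0.48 ± 0.26, adjusted p = 0.55). Without model_327 and model_387, in 4 against 2 libraries, 24 nuclear members were higher and 1 lower, against 13.1% and 13.5% of all genes. Of the 13 mitochondrial members 4 were lower and 1, mt-Nd3, was higher. The nuclear median was then 0.08 and the mitochondrial −0.38.

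Cox7a1, the heart and muscle isoform of a cytochrome c oxidase subunit, had 0.962, 1.45, 1.8 and 2.37 CPM in PGZ libraries and 0.389, 0.269, 0.0414 and 0.978 CPM in model libraries. It was low throughout, with 1 to 52 reads in each of these libraries (log2 change 1.95 ± 0.65, unadjusted p = 0.0083, adjusted p = 0.39). mt-Nd3 had 90.3, 37.1, 60.6 and 162 CPM in PGZ and 41.0, 35.9, 24.1 and 34.5 CPM in model libraries (log2 change 1.37 ± 0.52, adjusted p = 0.44). With the reads of the chromosome 1 copies added, no mitochondrial log2 change exceeded 0.59 and 0 mitochondrial members had an unadjusted p under 0.05. The 2 groups overlapped for both genes.

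For DLE against model edgeR, DESeq2 and limma voom each called 0 members. Of all genes, edgeR called 0%, DESeq2 1.52% and limma voom 0.0762%. The nuclear median was 0.14, the mitochondrial 0.11 and that of all genes −0.02, and 0 members were without overlap, against 1.6% of all genes higher and 1.09% lower. Unadjusted p under 0.05 was reached by Ndufs5 and Ndufa5 (log2 change 0.49 ± 0.23, unadjusted p = 0.049), or 2.13%, against 14.3% of all genes. Without model_327 and model_387 the mitochondrial median was −0.14. For DLE against PGZ edgeR and DESeq2 called 0 members and limma voom 1. Of all genes, edgeR called 0.00635%, DESeq2 0.244% and limma voom 4.21%. The mitochondrial median was 0.29 with 12 of 13 positive, and the nuclear median −0.01 (0.09 without model_DLE_378). Cox7a1 was the only member at an unadjusted p under 0.05, as were 9.63% of all genes (log2 change −1.36 ± 0.63, unadjusted p = 0.047), and Cox6b2, a testis isoform, the only one without overlap, of 81 nuclear members and against 4.24% of all genes (4.2% were lower), at under 2 CPM in every library.

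Ndufs5, an accessory subunit of complex I, varied widely between libraries within groups. It had 14.3, 17.6, 12.0 and 82.1 CPM in the normal group, 9.05, 16.8, 9.48 and 14 CPM in model, 98.9, 54.9, 16.4 and 14.4 CPM in PGZ and 18.3, 15.9, 69.7 and 52.0 CPM in DLE libraries. High values occurred in normal, PGZ and DLE libraries and not in the model group. Against model, PGZ and DLE had log2 fold changes of 1.91 ± 0.72 (adjusted p = 0.44) and 1.66 ± 0.72 (adjusted p = 0.31).

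The gene lies on chromosome 4 (GRCm38, 123712710 to 123718202, minus strand). A processed pseudogene on chromosome 16 (42955631 to 42955949, plus strand), BC002163, copies 319 bases of its 321-base coding sequence with 2 differences, T81C and A105G, counted from the first base of the start codon, with the Ndufs5 base first. The stretch from coding position 16 to 105, which in BC002163 is chr16:42955646-42955735, is shown because it holds both differences, in capitals.
Ndufs5: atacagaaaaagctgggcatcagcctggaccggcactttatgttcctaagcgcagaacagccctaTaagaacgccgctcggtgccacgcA
BC002163: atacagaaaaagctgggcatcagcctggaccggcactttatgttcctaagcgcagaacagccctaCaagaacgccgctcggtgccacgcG

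Reads counted to BC002163 mirrored those of Ndufs5. BC002163 had 0.549, 0.673 and 1.27 CPM in normal_409, model_PGZ_328 and model_DLE_378, where Ndufs5 was highest and took 98.2% to 99.3% of the reads of both. It had 26.3 and 27.8 CPM in model_PGZ_360 and model_DLE_401, where Ndufs5 took 67.6% and 65.1%. In 10 libraries it had 50.2 to 81.8 CPM and Ndufs5 took 13.5% to 21.2%, and in normal_376 Ndufs5 took 43.6%. The sum of both genes stayed between 59.6 and 99.6 CPM in 15 libraries and was 27.6 CPM in normal_376. With the reads of BC002163 added to Ndufs5, a choice made after seeing the data, the log2 fold change was 0.30 for PGZ against model (adjusted p = 0.74) and 0.21 for DLE against model (adjusted p = 0.75).

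**Figure D5:**
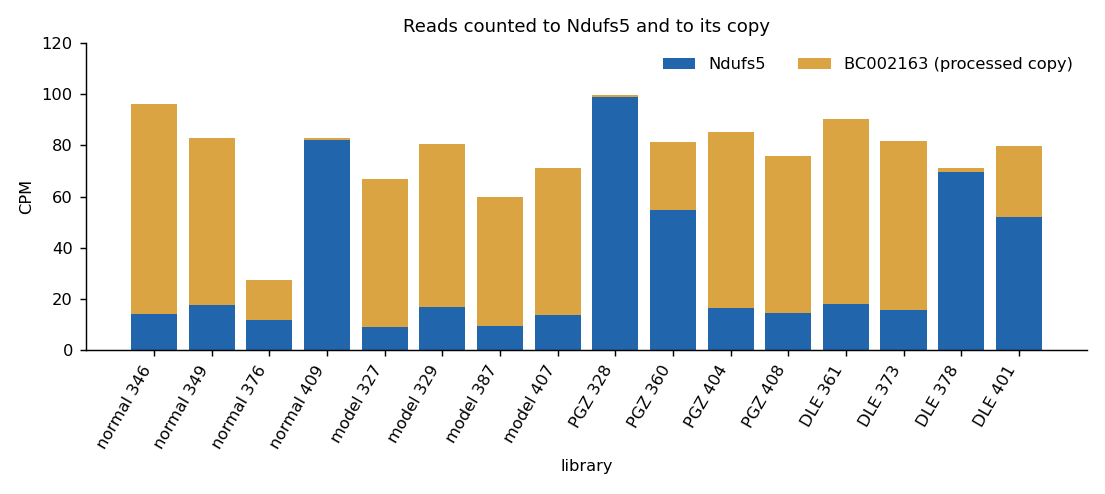
Stacked bars give the CPM counted to Ndufs5 (blue) and to its processed copy BC002163 (yellow) in each of the 16 libraries. The bars of 15 libraries end between 59.6 and 99.6 CPM, and the blue part ranges from 13.5% to 99.3% of the bar.

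Among paired isoforms of cytochrome c oxidase subunits, those known from muscle, lung or testis had the lower levels. Per kilobase over the 16 libraries Cox4i1 had 263 CPM per kb and Cox4i2, the isoform of lung, 0.356. Cox6a1 had 443 CPM per kb and the muscle isoform Cox6a2 0.138, Cox8a had 335 and Cox8b 0.150, and Cox6b1 had 271 and Cox6b2 0.507. Cox7a2 had 104 CPM per kb, Cox7a2l 28.9 and Cox7a1 1.63. Ndufa4, a complex IV subunit first assigned to complex I, had 204 and its paralog Ndufa4l2 3.29 CPM per kb. The genes Atp5g1, Atp5g2 and Atp5g3, which encode the same mature ring subunit of ATP synthase, had 30.6, 34.3 and 111.8 CPM per kb, and in PGZ against normal their log2 fold changes were 0.21 ± 0.33, 0.39 ± 0.32 and 0.63 ± 0.39, with no call.

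Genes around the respiratory chain were read from lists, against 6.18% of all genes called higher and 2.9% lower in model libraries, 6.15% and 6.08% with PGZ, and 1.84% and 1.7% with DLE. Of 45 assembly factors tested, 1 fell in model libraries (Cox20, a chaperone of the mt-Co2 protein, 101 ± 22.0 CPM in normal and 56 ± 16 in model, log2 change −0.85 ± 0.23, adjusted p = 0.030). In PGZ libraries 2 of them rose and 1 fell. Of 77 mitochondrial ribosomal protein genes, 1 rose in model, and 2 rose and 1 fell in PGZ libraries. Of 31 genes that express the mitochondrial genome, Mterf4, which acts in mitochondrial ribosome assembly, fell in all 3 db/db groups, from 66.0 ± 27.7 CPM (normal) to 28.8 ± 10.2 (model), 20.1 ± 2.16 (PGZ) and 29.9 ± 3.06 CPM (DLE) (adjusted p = 0.014, 0.00097 and 0.023). These comparisons share the normal libraries. With PGZ, 3 of the 31 fell and 0 rose.

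Enzymes that feed the chain were read against the same shares. Against normal libraries 4 of 14 citric acid cycle genes rose with PGZ (6.15% of all genes did), and 0 of 14 in model or DLE libraries. Idh2, mitochondrial isocitrate dehydrogenase, went from 45 ± 6.84 to 135 ± 20.1 CPM (log2 change 1.59 ± 0.32, adjusted p = 0.0058) and Suclg1, a succinyl-CoA ligase subunit, from 52.7 ± 22.2 to 144 ± 13.99 CPM (1.45 ± 0.37, adjusted p = 0.019). Gpd2, the glycerol phosphate dehydrogenase that passes electrons to ubiquinone, went from 12.6 ± 3.94 to 36.3 ± 12.4 CPM (1.52 ± 0.30, adjusted p = 0.0043) and was 1 of 3 of 21 electron carrier and ubiquinone genes to rise, while 0 did in model and 2 in DLE libraries. Of 19 genes taken as markers of mitochondrial mass, 3 rose with PGZ and 1 in model libraries, among the former them the ADP/ATP carrier Slc25a5, from 152 ± 63.0 to 343 ± 31.5 CPM (1.17 ± 0.31, adjusted p = 0.023). Of 15 regulators, Gabpb1, a subunit of GABP, fell from 22.2 ± 5.91 to 13.7 ± 0.709 CPM (−0.70 ± 0.22, adjusted p = 0.0499). None of these lists had a called gene in PGZ against model, DLE against model or DLE against PGZ. All list calls come from the fit of all 16 libraries. Whether they depend on single libraries such as normal_376 was not tested.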

How the data were processed

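The authors deposited raw read counts, 1 row for each Ensembl gene and 1 column for each library. HISAT2 2.1.0, StringTie 1.3.3b, CASAVA 1.8.2, DESeq2 1.28.0, FastQC 0.11.5 and GRCm38 are listed, with no role, per the submitters' processing notes. For annotation, strand setting and multiply matching reads, the authors' choices are not given in the sources used here. TRIzol extraction was followed by DNase, per the labels. The 4 white tea columns were empty.

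Identifiers were matched to GENCODE M21 (45143 of 46078). Counts were fitted for all 16 libraries and 4 groups in R 4.3.3 with edgeR 4.0.16 (filterByExpr, TMM, robust quasi-likelihood, two-sided tests). The alternatives were DESeq2 1.42.0 and limma 3.58.1 (voom with a quality weight for each library), and the edgeR fit was tested on simulated data. Each standard error is the absolute log2 fold change divided by the square root of the quasi-likelihood F. Figures and summaries used Python 3.11.15 and log2(CPM + 0.5). Windows of 75 bases were compared between annotated transcripts. Named members were all mitochondrial genes, up to 8 called nuclear members per direction or the 3 with the smallest p, core subunits and isoform groups. Other members are named for not overlapping, after their values were seen. The members and lists were chosen with earlier results of these data known, so that no pattern is independent evidence. Groups came from the labels. Totals of 16922833 to 25119799 reads give members below 1 CPM few reads. The values of 1 nuclear member are not reported here, although it is in all counts and medians.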

Additional observations from a re-analysis of the deposited data

Results flagged for a closer look

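Over 176 groups of 4 libraries examined, 11 held a library far from the others of its group. Chance gives about 1 in 20, so this number is close to the chance share, and the groups examined share libraries. In normal_376, mt-Nd3 was high at 193 CPM (others 31.0 to 47.9), the nuclear members were low at 0.529% of reads (others 0.981% to 1.05%), and there were 0.0251 nuclear reads per mitochondrially encoded read (others 0.0550 to 0.0590). In model_327 that ratio was high at 0.112 (others 0.0644 to 0.0695). In model_387 Uqcrfs1 was low at 118 CPM (others 181 to 193) and Uqcrc1 at 121 CPM (others 196 to 205), the Rieske iron-sulfur subunit and a core protein of complex III. In model_DLE_361 Sdhd was high at 106 CPM (others 54.3 to 62.9) and Cox5a at 152 CPM (others 70.3 to 77.8). Ndufs5 was high in normal_409 at 82.1 CPM (others 12.0 to 17.6), Ndufs8 in model_PGZ_328 at 107 CPM (others 86.9 to 87.9) and Uqcrc2 in model_PGZ_408 at 173 CPM (others 150 to 154).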

How the results depend on the processing

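In PGZ against normal, where 4 members were called, 1 was called with no filter on low counts (1.06%, against 5.53% of all genes). With only those groups in the fit 8 were called (8.7%, against 29.6% of all genes). DESeq2 called 10 (10.6%, against 11.2%) and limma voom 37 (39.4%, against 40.2%). With DESeq2 and with no filter, the share of all genes is over 25770 genes with any read, low-count genes included. The members had passed the edgeR filter, so those shares cannot be set against each other. With RLE scaling, scaling outside the mitochondrial genome or copy reads added, 3 were called, without mt-Co3 (3.19%, against 11.8% to 12.2% of all genes). Leaving out 1 library at a time gave 0 to 3, with 5.33% to 11.7% of all genes called. In model against normal, where 0 were called, DESeq2 called 4 (4.26%, against 9.17% of all genes) and limma voom 13 (13.8%, against 27.5%). Single left-out libraries gave 0 to 1, with 3.12% to 18% of all genes called. The count was 1 without model_329 (18% of all genes called) or model_387 (5.04%). Limma voom called 3 in PGZ against model (3.19%, against 10.4% of all genes) and 1 in DLE against PGZ (1.06%, against 4.21%). The cause was not tested. Over 56 fold changes of named members and 1026 repeats, 32 changed sign, 31 lost and 26 gained a call. None of the 32 was called. In model against normal, limma voom gave 0.032 for mt-Nd5 and 0.11 for mt-Nd6. Without model_327 and model_387 these were 0.13 and 0.084, and mt-Nd6 was 0.056 without normal_376 as well. mt-Nd3 was −0.26 in PGZ against normal with the reads of its copy added. In DLE against normal mt-Nd3 was 0.42 by limma voom and 0.53 without those 3 libraries. With single libraries left out, in model against normal mt-Nd4l ranged from −0.077 to 0.43 and mt-Nd5 from −0.20 to 0.10. In PGZ against normal mt-Nd3 ranged from −0.32 to 1.13. In DLE against normal mt-Nd3 ranged from −0.70 to 0.54, mt-Nd4l from −0.77 to 0.17, mt-Nd5 from −0.22 to 0.16 and mt-Nd6 from −0.13 to 0.13. Repeats without those 3 libraries together, or with copy reads added, were chosen after seeing the data. No paired analysis was possible because no number in the library labels is shared between groups.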
